A study of Mus musculus with 22 samples.

Results

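The transcripts of 8 goblet cell genes, Muc2, Fcgbp, Clca1, Zg16, Tff3, Spink4, Agr2 and Spdef, were followed in mouse duodenal organoids exposed to cold atmospheric plasma (CAP), an ionized helium jet that delivers reactive oxygen and nitrogen species. The 8 genes were taken by symbol from a deposited table of 52636 genes, all 8 were found, and all 8 passed the filter on low values in each of the 10 comparisons made. The table held 22 RNA-seq libraries of wild type organoids grown from duodenal crypts of 2-month-old mice of the outbred CD1 strain, in 7 groups. The 4 untreated libraries came from 4 organoid lines, each started from 1 mouse. The labels name them CD1, WT2, 1 and 2, and they are numbered here as lines 1, 2, 3 and 4 in that order, and the 6 treated groups held 3 libraries each, from lines 1, 2 and 4. The labels gave passage 12 for line 1, passage 14 for line 2 and passage 4 for lines 3 and 4. Plasma was given at 50 W for 60 s. In direct CAP it was applied to the culture itself at day 1 after replating, and the treated medium was left for 30 min (direct 30 min) or for 24 h (direct 24 h). In indirect CAP untreated organoids received medium from CAP-treated cultures, and in the plasma-activated medium (PAM) groups they received medium treated without organoids. Both media were given for 24 h, from day 1 or from day 2 (indirect day 1, indirect day 2, PAM day 1, PAM day 2 below). Day 3 was the endpoint of the culture scheme. Groups exposed from day 1 for 24 h had fresh medium for the last 24 h, whereas the media given from day 2 had been made at day 1 and were on the organoids until the end. The sample labels name these day 1 groups 30 min and the day 2 groups 24 h, and the start days used here are those of the study's methods.

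Goblet cells are the mucus-secreting cells of the intestinal epithelium. They arise from secretory progenitors in which Notch signalling is low and Atoh1 is switched on, and the ETS factor Spdef then drives their terminal maturation. They package the gel-forming mucin Muc2, with a set of smaller mucus proteins, into apical granules that swell on release. The whole load passes through the endoplasmic reticulum, where the protein disulfide isomerase Agr2 is needed for Muc2 to be made.

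The deposited values are read counts that the authors scaled to 20 M per library, written here as scaled values. They were not divided by gene length, and from the spacing of the low values the libraries were estimated to hold 19.4 to 28.7 M counted reads (median 22.5 M). The labels call the cells stem cells, and in untreated organoids 7 stem cell markers summed to 55848 to 65675 and 12 enterocyte markers to 162094 to 185212. Of 9 markers of immune, stromal and endothelial cells, 2 or 3 passed the filter in each comparison and 0 were called, and the summed scaled value of the 9 was 46 to 217 over the 22 libraries (150 to 193 untreated, 46 to 127 after PAM day 1 and 64 to 142 after PAM day 2). In the untreated libraries most of this sum was Lyz2 (mean 143.5), which was at a mean of 47.7 after PAM day 1. The sum therefore says little about the other markers. Cdh5, which marks endothelium, was at 0 in all 4 untreated libraries and at 3 or less in every treated one. The untreated libraries of lines 1 and 2 did not follow their labelled lines. Once group means were removed, untreated line 1 correlated with the line 1 libraries of the treated groups at a median r of 0.08 and with those of line 2 at 0.54. Untreated line 2 reached 0.13 with line 2 and 0.35 with line 1. The p-values measure the spread between organoid lines and libraries, and no line was sampled more than once in a group. In such bulk RNA fewer goblet cells and less RNA per goblet cell cannot be told apart.

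The start regions of the genes are shown because the members were all lower in one treated group and on both sides of the untreated level in another. The RefSeq promoter table (GRCm38.p6, 250 bases before to 50 after the start) held 4 of the 8, Muc2 at chr7:141690090-141690389 on the plus strand, Fcgbp at chr7:28070986-28071285 on the plus strand, Agr2 at chr12:35992675-35992974 on the plus strand and Spdef at chr17:27728902-27729201 on the minus strand. Each is written 5′ to 3′ on its own strand, with matches to 7 motifs in capitals. The motifs, searched on both strands, were the SPDEF core GGATGT, the E-box CAGCTG, the FOXA letters TGTTTAC, the KLF letters CACCC, the AP-1 letters TGANTCA, the CDX2 letters TTTATG and the TATA letters TATAAA. Looser matches were not searched.
Muc2: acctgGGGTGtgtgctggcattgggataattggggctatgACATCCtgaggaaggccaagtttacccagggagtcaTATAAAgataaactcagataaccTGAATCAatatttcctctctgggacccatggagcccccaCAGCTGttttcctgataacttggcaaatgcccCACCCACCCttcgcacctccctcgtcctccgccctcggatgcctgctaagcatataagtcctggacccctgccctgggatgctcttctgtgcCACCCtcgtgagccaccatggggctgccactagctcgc
Fcgbp: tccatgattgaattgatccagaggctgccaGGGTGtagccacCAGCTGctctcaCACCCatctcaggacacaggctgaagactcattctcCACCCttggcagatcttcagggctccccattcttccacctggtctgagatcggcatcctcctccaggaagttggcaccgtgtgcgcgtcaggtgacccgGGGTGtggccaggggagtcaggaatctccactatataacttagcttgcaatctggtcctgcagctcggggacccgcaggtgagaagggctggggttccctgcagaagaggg
Agr2: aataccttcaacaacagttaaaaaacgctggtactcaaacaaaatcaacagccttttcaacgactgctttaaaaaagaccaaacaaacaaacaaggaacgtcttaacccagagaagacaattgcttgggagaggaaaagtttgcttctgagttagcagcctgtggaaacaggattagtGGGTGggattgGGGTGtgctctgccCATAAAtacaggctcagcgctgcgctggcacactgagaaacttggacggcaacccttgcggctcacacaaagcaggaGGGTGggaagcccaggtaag
Spdef: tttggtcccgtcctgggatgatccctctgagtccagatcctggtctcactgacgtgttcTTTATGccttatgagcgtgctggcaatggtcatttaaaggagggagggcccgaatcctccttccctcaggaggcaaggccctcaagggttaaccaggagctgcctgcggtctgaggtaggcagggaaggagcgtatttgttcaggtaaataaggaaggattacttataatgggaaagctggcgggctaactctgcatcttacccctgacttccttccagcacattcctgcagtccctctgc

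The Muc2 window held 5 of the 7 motifs: the SPDEF core, the E-box, CACCC in 4 places, the AP-1 letters and the TATA letters. A pair of its CACCC matches overlap by a base. CAGCTG was in 2 of the 4 windows (Muc2 and Fcgbp), against 16.3% of 32851 promoters of the same length. CACCC was in 3 of the 4, Muc2, Fcgbp and Agr2, against 57.5% of all promoters, and the SPDEF core was in the Muc2 window alone of the 4, against 11.1%. Of the 7 motifs the Spdef window held the CDX2 letters only. These letters were in 11.9% of all promoters, and the Agr2 window held them too. The AP-1 letters (7.81% of promoters) and the letters TATAAA (13.6%) were found only in Muc2 of the 4 windows, and TGTTTAC (3.65%) in none. These are matches of letters, not binding sites.

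In untreated organoids the 8 genes spanned a wide range when levels were divided by the length of their merged exons. Tff3 (chromosome 17, 31125306 to 31129646) was highest, at 14540 ± 1585 scaled counts per kb (SD, n = 4), followed by Fcgbp (chromosome 7, 28071236 to 28120862) at 7316 ± 2125 and Spink4 (chromosome 4, 40920052 to 40931395) at 5655 ± 1145. The ranges of Fcgbp and Spink4 overlapped. Zg16 (chromosome 7, 127050156 to 127087328) stood at 3689 ± 621 per kb and Agr2 (chromosome 12, 35992907 to 36004087) at 2202 ± 268. Muc2 (chromosome 7, 141690340 to 141754693) at 956 ± 501 and Clca1 (chromosome 3, 145003817 to 145032776) at 890 ± 271 could not be separated, and Spdef (chromosome 17, 27714352 to 27728955) was lowest at 220 ± 52.9. The genes are named with their GENCODE vM21 positions on GRCm38. The Muc2 model is marked there as a fragmented locus, so its length and its level per kb are uncertain. Of the 100-base windows of Fcgbp transcripts, 1.58% also occur in 9530053A07Rik, and the other 7 members shared no such window with another gene. Zg16 is overlapped by Gm44939 and Gm22747 on the opposite strand, and since the counting was not stated to use strand, reads of these genes could not be told from Zg16.

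The 8 genes together took 0.411 to 0.708% of all scaled values in the untreated libraries, 0.435 to 0.988% after PAM day 1 and 0.096 to 0.251% after PAM day 2. Fcgbp alone made up 61.9 to 76.6% of their sum in the 22 libraries. The library of line 4 after PAM day 2 had the lowest value of all 22 libraries for each of the 8 genes. The share of all genes with their lowest value in that library was not determined. The highest values were more scattered, and the PAM day 1 library of line 2 held 4 of the 8.

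**Figure D1:**
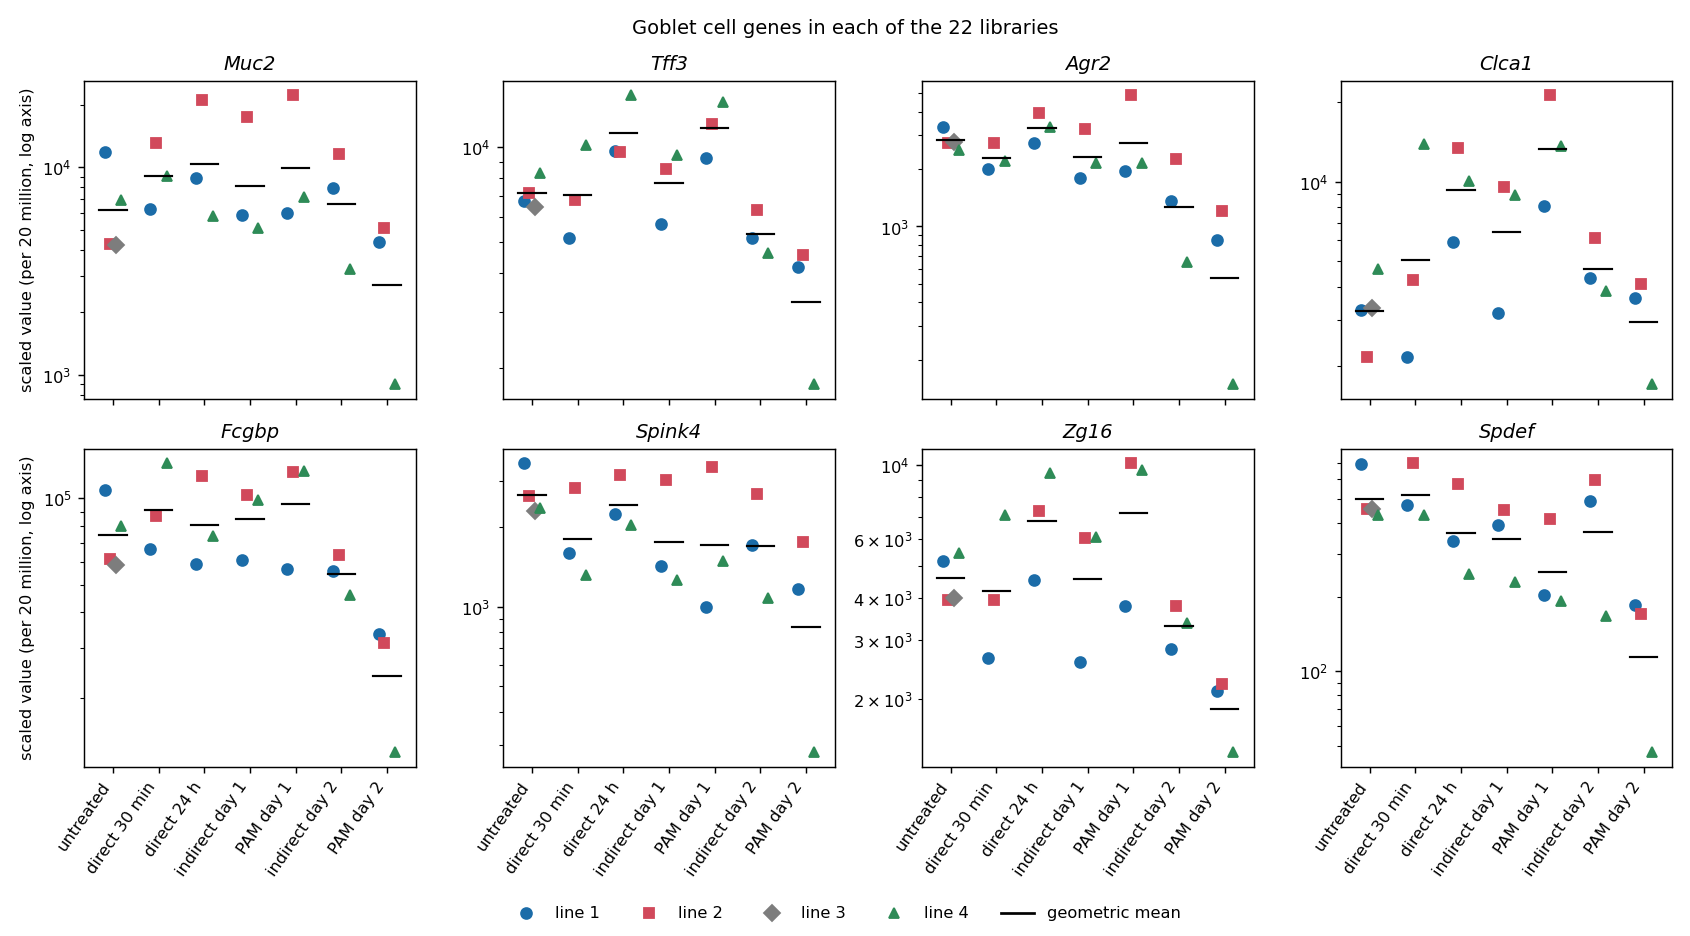
Scaled values (counts per 20 M, log axis) of the 8 genes in the 7 groups. Each point is a library, with its shape and colour giving the organoid line, and the bar is the geometric mean of the group. The green triangle of line 4 after PAM day 2 is the lowest point in every panel, and Clca1 after PAM day 1 (8074 to 21164) lies above all 4 untreated libraries (2171 to 4668).

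Clca1, a secreted metalloprotease that cleaves Muc2 and loosens the mucus gel, was the member that rose. Its scaled values in the untreated libraries of lines 1, 2, 3 and 4 were 3270, 2171, 3339 and 4668. After PAM day 1 they were 8074, 21164 and 13686 in lines 1, 2 and 4, all above the untreated range. After direct 24 h they were 5908, 13414 and 10074, again above every untreated library. Indirect day 1 gave 3188, 9498 and 8928, so that line 1 stayed within the untreated range. Direct 30 min gave 2172, 4236 and 13916, a spread in which a single library, line 4, lay above the untreated range. In the day 2 groups Clca1 was close to the untreated values, at 4303, 6109 and 3868 after indirect day 2 and 3613, 4083 and 1713 after PAM day 2.

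Spdef, the transcription factor of goblet cell maturation, went the other way. Its untreated values were 690, 456, 455 and 431, with line 1 standing apart from the other three. After PAM day 1 they were 203, 414 and 193, all below the lowest untreated library, and after PAM day 2 they were 186, 170 and 47. The other groups overlapped with untreated. Direct 24 h gave 338, 574 and 247, indirect day 1 gave 391, 451 and 231, and indirect day 2 gave 490, 598 and 167, with line 4 lowest in each of these groups. Direct 30 min gave 471, 697 and 429, which spans the untreated range.

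Muc2, the gel-forming mucin itself, overlapped with the untreated libraries in all 6 treated groups. Its untreated values were 11810, 4266, 4217 and 6967. It was 6263, 13149 and 9113 after direct 30 min, 8927, 21096 and 5832 after direct 24 h, 5919, 17540 and 5108 after indirect day 1 and 6032, 22175 and 7229 after PAM day 1. Line 2 was the highest in each of these 4 groups. Indirect day 2 gave 7923, 11636 and 3250, and PAM day 2 gave 4359, 5086 and 902, where line 4 lay below and lines 1 and 2 within the untreated range.

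Fcgbp, the IgG Fc-binding protein that is cross-linked into the mucus, and Zg16, a lectin that binds Gram-positive bacteria, were both low after PAM day 2. Fcgbp stood at 107091, 61339, 58735 and 80024 in the untreated libraries and at 33616, 31106 and 12961 after PAM day 2, with no overlap. Zg16 stood at 5172, 3940, 3997 and 5440 untreated and at 2115, 2213 and 1391 after PAM day 2, also with no overlap. After PAM day 1 both spanned the untreated range, Fcgbp at 56708, 123711 and 124378 and Zg16 at 3800, 10085 and 9641. The low library was line 1 in both. After indirect day 2 Zg16 was 2824, 3790 and 3385, below every untreated library, whereas Fcgbp was 55794, 63420 and 45780 and overlapped.

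Tff3, the trefoil peptide of the intestinal mucus, was 6763, 7152, 6486 and 8265 in the untreated libraries, a narrow range. It was above that range after direct 24 h (9724, 9630 and 14596) and after PAM day 1 (9253, 11857 and 13874). It was below it after indirect day 2 (5146, 6306 and 4629) and after PAM day 2 (4183, 4546 and 1772). Agr2, the isomerase needed for Muc2 assembly, was 3331, 2750, 2776 and 2515 untreated, 1364, 2258 and 654 after indirect day 2 and 847, 1206 and 149 after PAM day 2. Both day 2 groups lay below the untreated libraries for Agr2, while after PAM day 1 it was 1956, 4860 and 2141, on both sides of them. Spink4, a small peptide with a Kazal domain that is stored in goblet cells, was 3490, 2625, 2310 and 2364 untreated and 1170, 1767 and 282 after PAM day 2, with no overlap. After PAM day 1 Spink4 was 1000, 3370 and 1491, which overlapped through line 2.

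The study's design asks first what 24 h of exposure from day 1 does, whichever way the reactive species reach the organoids. The 9 libraries of direct 24 h, indirect day 1 and PAM day 1 were set against the 4 untreated ones. They come from 3 lines, each present 3 times, so they are not 9 independent animals. A gene was called when its adjusted p was under 0.01 and its log2 fold change at least 1 either way. Of the 8 genes 1 was called, Clca1, which rose (log2 fold change 1.52 ± 0.37 SE, 2.86-fold, adjusted p = 0.00702). Over all genes tested 4.27% were called higher and 2.07% lower in this comparison. Spdef (log2 fold change -0.65 ± 0.27, adjusted p = 0.0745) and Tff3 (0.48 ± 0.19, adjusted p = 0.0662) missed the threshold, and the other 5 had adjusted p from 0.252 to 0.912. The median log2 fold change of the 8 was 0.31, against -0.05 over all genes tested. The Clca1 call ended when any one of 8 libraries was left out (any untreated library, direct 24 h of line 2 or line 4, indirect day 1 of line 4 or PAM day 1 of line 4), with adjusted p from 0.0105 to 0.0312, while its log2 fold change stayed between 1.32 and 1.69. With the 3 treated libraries of each line averaged the call also ended (1.52, adjusted p = 0.0134). Without the untreated libraries of lines 1 and 2, whose labels are in doubt, it was 1.23 with adjusted p = 0.118.

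Taken group by group, Clca1 was called in PAM day 1 alone of the day 1 groups. It rose with a log2 fold change of 2.03 ± 0.34 (4.09-fold, 95% interval 1.26 to 2.81, adjusted p = 0.00215), where 4.83% of all genes tested were called higher and 5.4% lower. In direct 24 h its log2 fold change was 1.52 ± 0.31 with adjusted p = 0.0149, and in indirect day 1 it was 0.995 ± 0.39 with adjusted p = 0.0986. PAM day 1 was also compared directly with direct 24 h. There the difference in Clca1 was 0.52 ± 0.40 (95% interval -0.41 to 1.45, adjusted p = 0.686), no member was called and 0% of all genes were, and 0 of the 8 had an unadjusted p under 0.05 in limma, as 10.4% of all genes did. Line by line Clca1 was higher after PAM day 1 in 3 of 3 lines, by 0.451, 0.658 and 0.442 on the log2 scale in lines 1, 2 and 4, and Spdef was lower in 3 of 3, with differences of -0.733, -0.47 and -0.354. The share of all genes with the same direction in 3 of 3 lines was not determined. With the line as a block the difference was 0.52 ± 0.12 for Clca1 (95% interval 0.25 to 0.78, adjusted p = 0.0503) and -0.52 ± 0.14 for Spdef (-0.82 to -0.22, adjusted p = 0.0714), and neither was called. Of the 17072 genes tested, that block fit called 58, and 3810 had an unadjusted p under 0.05 in limma. The differences of Clca1 and Spdef are therefore not read as particular to them. In direct 24 h, indirect day 1 and direct 30 min no member was called, where 2.17%, 1.31% and 0.00564% of all genes were. At an unadjusted p under 0.05 limma found 3, 1 and 1 of the 8 in these groups, where 32.6%, 38.6% and 24.9% of all genes passed. The Clca1 call in PAM day 1 ended with the organoid line as a block (log2 fold change 2.05, adjusted p = 0.0147), without the PAM day 1 library of line 4 (2.01, adjusted p = 0.0102) and without the untreated libraries of lines 1 and 2 (1.75, adjusted p = 0.0224). Without the PAM day 1 library of line 1 Zg16 was called as well (1.10, adjusted p = 0.00159), and without that of line 2 Spdef (-1.33, adjusted p = 0.00229) and Spink4 (-1.12, adjusted p = 0.00528) were. No share of all genes stands beside the calls of these reduced fits.

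Tff3 passed the p threshold but not the fold threshold. Its log2 fold change after PAM day 1 was 0.69 ± 0.15 with adjusted p = 0.00634, under the fold threshold, and after direct 24 h it was 0.64 ± 0.16 with adjusted p = 0.0313. In both groups 2 of the 8 genes, Clca1 and Tff3, lay above all untreated libraries, as did 17.1% of all genes after PAM day 1 and 11.6% after direct 24 h. Spdef was the 1 member below all untreated libraries after PAM day 1 (log2 fold change -0.97 ± 0.28, adjusted p = 0.0243), as were 29.7% of all genes. All comparisons with untreated organoids share the same 4 untreated libraries, so they are not independent of each other.

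**Figure D2:**
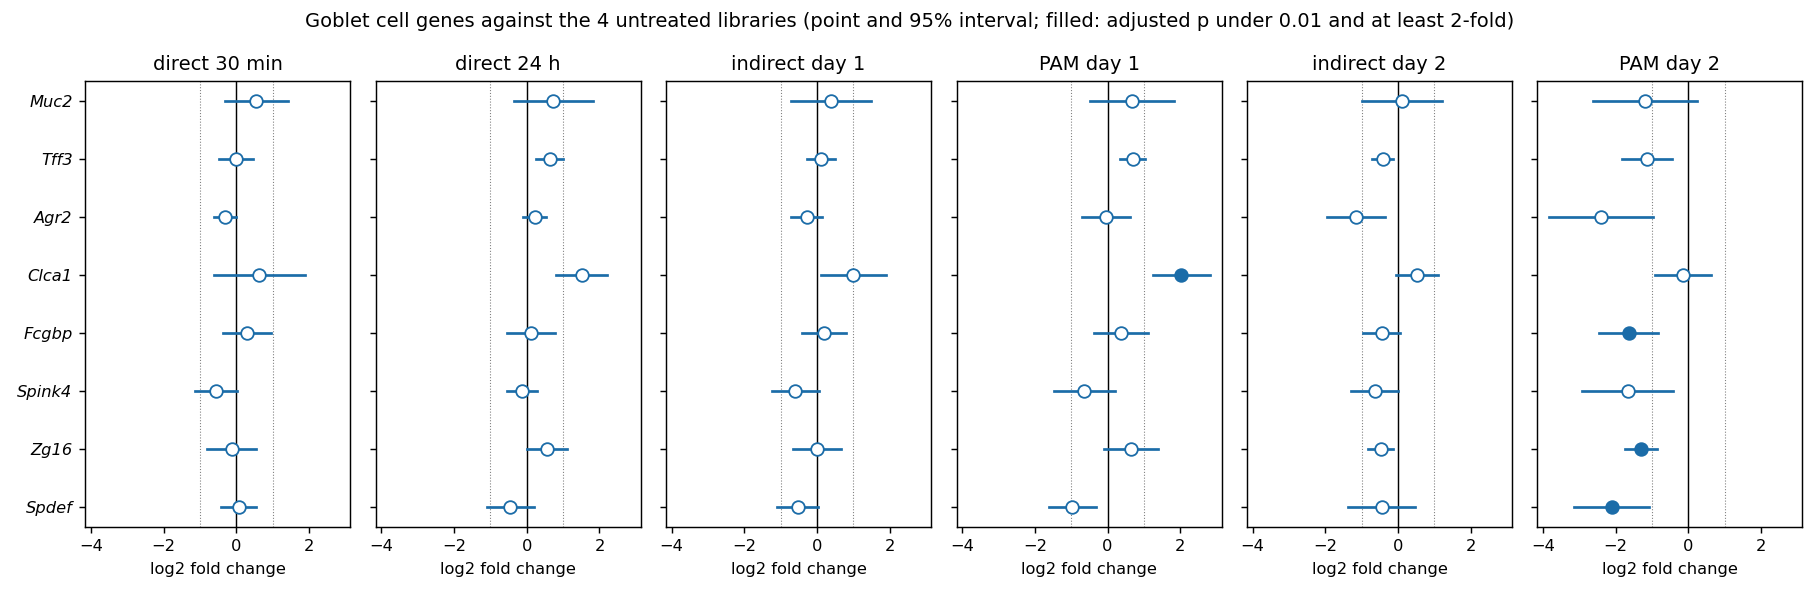
Log2 fold change of the 8 genes against the 4 untreated libraries, in 6 panels, one for each treated group of 3 libraries. Points are limma estimates with 95% intervals, filled where the gene was called, and dotted lines mark a 2-fold change. Clca1 is filled after PAM day 1 (2.03), and Fcgbp, Zg16 and Spdef are filled after PAM day 2 (-1.64, -1.30 and -2.11).

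With PAM from day 2, 3 of the 8 genes fell, Spdef (log2 fold change -2.11 ± 0.45, adjusted p = 0.00639), Fcgbp (-1.64 ± 0.36, adjusted p = 0.00672) and Zg16 (-1.30 ± 0.19, adjusted p = 0.00136). This was 3 of 8 where 10.5% of all genes tested were called lower and 6.82% higher. Agr2 had the largest estimate of the 8, -2.40 ± 0.62, but its spread kept it at adjusted p = 0.0138. Tff3 (-1.14, adjusted p = 0.0152), Spink4 (-1.67, adjusted p = 0.0349) and Muc2 (-1.19, adjusted p = 0.145) also missed the threshold. Clca1 was the member nearest to no difference, at -0.14 ± 0.34 (95% interval -0.92 to 0.63). All 8 estimates were below 0, with a median of -1.47 against -0.12 over all genes, and 6 of the 8 lay below every untreated library, as did 32.6% of all genes. With the organoid line as a block, which uses the untreated line labels that are in doubt, Fcgbp was lost (-1.76, adjusted p = 0.0101). Without any one of the 4 untreated libraries Zg16 alone stayed called, with Spdef at adjusted p from 0.0153 to 0.0202 and Fcgbp from 0.0119 to 0.0195. Fcgbp was also lost without the PAM day 2 library of line 2 (-1.84, adjusted p = 0.011), and Agr2 was gained without that library (-2.99, adjusted p = 0.00746) or without that of line 4 (-1.48, adjusted p = 0.00052). No share of all genes stands beside the calls of these reduced fits. Without the untreated libraries of lines 1 and 2 none of the 8 was called, with Zg16 at -1.32 and adjusted p = 0.0196.

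Indirect day 2 gave smaller estimates. None of the 8 was called, where 6.2% of all genes were called higher and 5.71% lower, and 4 of the 8 had an unadjusted p under 0.05 in limma, all of them lower, a share close to the 52.1% of all genes that did in either direction. Agr2 (-1.16 ± 0.35, adjusted p = 0.0265), Tff3 (-0.42 ± 0.12, adjusted p = 0.024) and Zg16 (-0.47 ± 0.15, adjusted p = 0.0319) lay below all untreated libraries, as did 25.8% of all genes. Agr2 was called when the indirect day 2 library of line 2 was left out (-1.58, adjusted p = 0.00319), and no share of all genes stands beside that call. Muc2 (0.11 ± 0.48) and Clca1 (0.53 ± 0.25) were the members with estimates above 0.

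The day 2 and day 1 groups were then compared within each medium, which uses no untreated library. Start day, age of the medium and time in fresh medium before the endpoint differ together between them and cannot be told apart. Between PAM day 2 and PAM day 1 all 8 estimates were below 0, from -1.03 for Spink4 to -2.35 for Agr2, and 7 of the 8 genes, all but Spink4, lay lower without overlap, as did 16.9% of all genes. In the fit of these 6 libraries no gene of the whole table was called (0%), so the members' adjusted p, from 0.0594 to 0.396, stand beside a test that called nothing. At an unadjusted p under 0.05 limma found 6 of the 8, against 26.8% of all genes. With all 7 groups in one fit 4 were called lower, Tff3 (adjusted p = 0.000637), Fcgbp (0.00169), Zg16 (0.00265) and Agr2 (0.00654), where 2.82% of all genes were called lower. With the organoid line added to that fit Clca1 joined them (adjusted p = 0.00351), where 4.39% were.

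The size of this difference varied with the line. On the log2 scale line 4 had the largest drop for each of the 8 genes, from -2.02 for Spdef to -3.84 for Agr2, and line 1 the smallest, from -1.21 for Agr2 to 0.23 for Spink4. The difference for Clca1 was -1.16, -2.37 and -2.997 in lines 1, 2 and 4, and for Tff3 it was -1.15, -1.38 and -2.97. In indirect CAP the same comparison gave smaller differences. Tff3, Agr2 and Fcgbp were lower at day 2 in all 3 lines, no member was called (0.0111% of all genes were), and 2 of the 8 had an unadjusted p under 0.05, Fcgbp (log2 fold change -0.64 ± 0.24) and Tff3 (-0.54 ± 0.21), where 21.7% of all genes did. The share of all genes lower in all 3 lines was not determined.

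**Figure D3:**
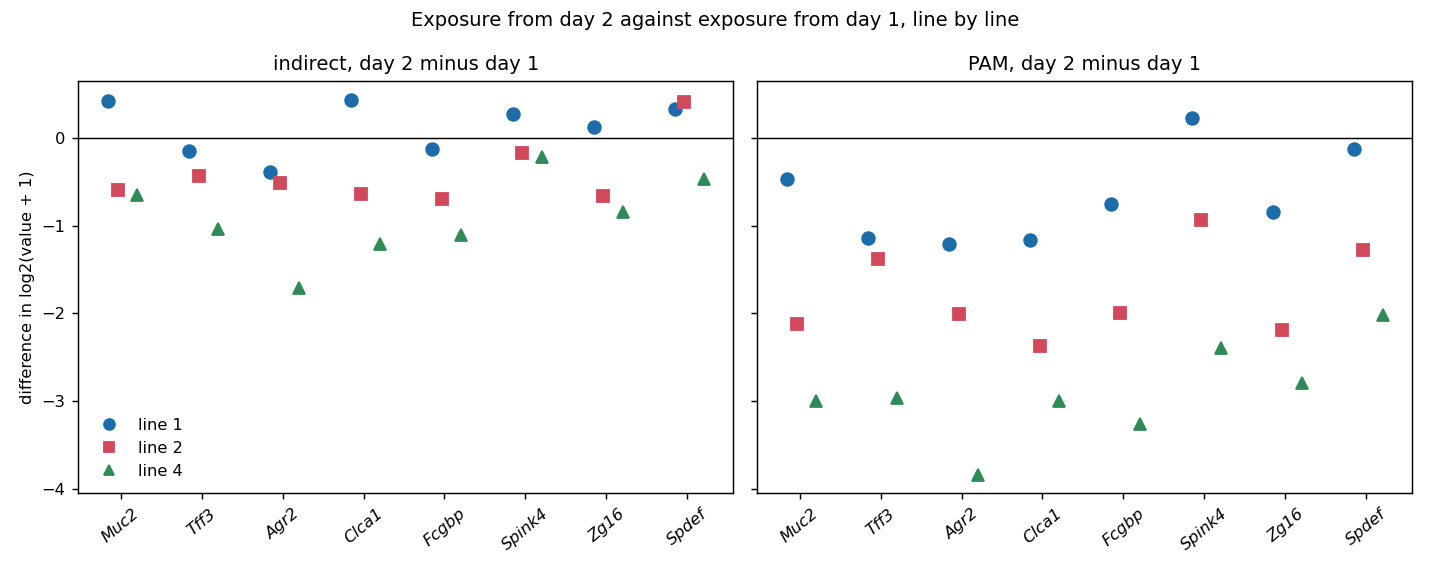
Difference in log2(value + 1) between exposure from day 2 and from day 1, for indirect CAP (left) and PAM (right), in each of the 8 genes. Each point is 1 organoid line, with the line given by shape and colour. In PAM 23 of the 24 points lie below 0, and line 4 is the lowest for each gene.

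Clca1 and Spdef are set side by side because one rose and the other was low after PAM day 1, a pair chosen after its values were seen. In the untreated libraries the scaled value of Clca1 was 4.74 to 10.8 times that of Spdef. The ratio was 39.8, 51.1 and 70.9 in lines 1, 2 and 4 after PAM day 1, 17.5, 23.4 and 40.8 after direct 24 h and 8.15, 21.1 and 38.6 after indirect day 1. For PAM day 2, where Spdef was low and Clca1 near its untreated level, it was 19.4, 24.0 and 36.4, also above every untreated library. After indirect day 2 it was 8.78, 10.2 and 23.2 and after direct 30 min 4.61, 6.08 and 32.4, both of which overlapped. Tff3 against Spink4 gave a weaker picture, 1.94 to 3.5 untreated and 9.25, 3.52 and 9.31 after PAM day 1. Their estimates there lay on opposite sides of 0 (0.69 and -0.63), so the raised ratio is no separate result. In lines 1, 2 and 4 it was 3.22, 2.41 and 7.69 after direct 30 min. After direct 24 h it was 4.35, 3.06 and 7.14, and after indirect day 1 4.01, 2.83 and 7.52. Line 4 had the highest ratio in each treated group.

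**Figure D4:**
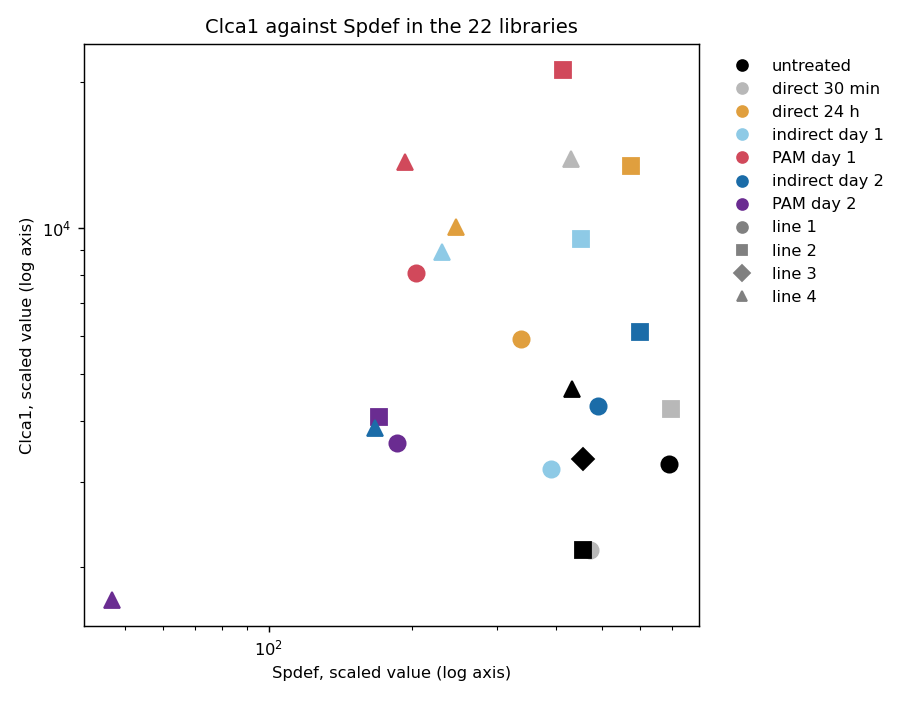
Scaled value of Clca1 against that of Spdef (both log axes) in the 22 libraries, coloured by group and shaped by line. The PAM day 1 libraries lie at the upper left of the untreated ones (Clca1 8074 to 21164, Spdef 193 to 414), and the PAM day 2 library of line 4 lies at the lower left (1713 and 47).

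Across the 22 libraries the members did not form a single block. On log2 values the closest pairs were Tff3 and Zg16 (Pearson r = 0.927) and Agr2 and Spink4 (0.893), and Spdef went with Spink4 (0.867) and Agr2 (0.811). Clca1 went with Zg16 (0.835) and Tff3 (0.796) but hardly with Spdef (0.176) or Spink4 (0.333). After group means were removed, Muc2 and Spdef reached 0.912 and Agr2 and Spink4 0.937, while Zg16 and Spdef were at 0.153. These coefficients describe 22 libraries that share lines and groups, and carry no test. They and those of the searches below include the PAM day 2 library of line 4, the lowest of the 22 for each of the 8 genes. No coefficient without it is given.

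The genes whose log2 values followed Muc2 most closely over the 22 libraries, among 19362 others that passed the filter, were Sidt1 (r = 0.907), Adgrb3, Gm26732, AC124577.4, Tmbim6, Cyp4a10, Phactr2, Dct, Slc17a4 and Top1mt (0.865). Adgrb3 and AC124577.4 reached scaled values of only 26 and 27, whereas Tmbim6, an endoplasmic reticulum protein that restrains cell death, ranged from 8929 to 24998. A second search, against the mean of the 8 members, was added after values were seen. Its leading genes were Prr15l (0.927), B3gnt5, Lrrc26, Ptprn2, Tmbim6, Pxmp4, Capn9, Slc2a10, Top1mt and Hepacam2 (0.896). Lrrc26 (0.915) and Capn9 (0.908) are in the list of further goblet cell markers used below.

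Regulators upstream of the goblet programme were read from a list of 10 secretory and goblet cell transcription factors. For this list and those below, all genes tested give the background. In the pooled day 1 comparison 4.27% were called higher and 2.07% lower, and after PAM day 1 4.83% and 5.4%. After indirect day 2 the shares were 6.2% and 5.71%, and after PAM day 2 6.82% and 10.5%. In the pooled comparison at day 1, 1 rose and 2 fell. Klf4, a zinc finger factor of goblet cell differentiation, rose (log2 fold change 1.13, adjusted p = 0.00487), and Creb3l4 (-1.15) and Gfi1 (-1.24), which represses the endocrine fate in favour of goblet and Paneth cells, fell. After PAM day 1, 1 rose and 4 fell, Klf4 rising from a mean of 1447 to 4117 and Neurog3, the enteroendocrine determinant, falling from 356 to 21.0 (log2 fold change -4.02, adjusted p = 4.1e-05), with Gfi1 (-1.74), Creb3l4 (-1.43) and Creb3l1 (-1.08). In PAM day 2, 1 rose and 5 fell, among them Atoh1, the master switch of the secretory lineage, from a mean of 492 to 101 (-2.50, adjusted p = 0.00357), Neurog3 (-3.09), Creb3l4 (-2.89) and Gfi1 (-2.51). The gene that rose was again Klf4 (1.88), named here after its value was seen. After indirect day 2 Klf4 rose (1.47), and Creb3l4 (-1.73), Neurog3 (-1.72) and Gfi1 (-1.64) fell. The list median was -0.53 after PAM day 1 and -1.58 after PAM day 2, against -0.13 and -0.12 over all genes.

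The enzymes that build mucin sugar chains moved differently. Of 17 tested genes of mucin O-glycosylation 4 rose and 0 fell after PAM day 1, where 4.83% of all genes were called higher and 5.4% lower. At an unadjusted p under 0.05 in limma 7 were higher and 4 lower, against 50.5% of all genes in either direction. The called genes were Gcnt1 (mean 39.0 to 383, log2 fold change 3.47, adjusted p = 0.00134) and Gcnt3 (4814 to 13220, 1.46, adjusted p = 0.000528), which branch the core structures, St3gal4 (2.51), which adds sialic acid, and Fut2 (1.28), which adds fucose. The same 4 genes were the ones called in the pooled day 1 comparison. In PAM day 2, 1 rose, Galnt3 (1.10), and 1 fell, Galnt12 (-1.70), both of which start O-glycan chains. None of the 17 was called after indirect day 2, where 5 were higher and 6 lower at an unadjusted p under 0.05 in limma (52.1% of all genes).

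Of 15 genes of mucin folding and the secretory pathway 6 fell and 0 rose after PAM day 2. There 10.5% of all genes were called lower and 6.82% higher. The largest changes were in the disulfide isomerase Pdia5 (-1.83), the thioredoxin-like Txndc5 (-1.62), Ern2 (-1.43), the endoplasmic reticulum stress sensor of mucous cells, and Sdf2l1 (-1.26). The summed scaled value of the 15 was 22486 to 22817 after PAM day 2, 24373 to 25906 after indirect day 2 and 35965 to 41527 in untreated organoids. After indirect day 2, 3 fell, Pdia5 (-1.28), Pdia6 (-1.14) and Sdf2l1 (-1.05). At day 1 only Pdia5 was called, at -1.42 in the pooled comparison and -1.93 after PAM day 1.

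Of 9 genes of granule release 4 rose and 0 fell after PAM day 1, the small GTPases Rab27a (1.23) and Rab27b (1.09), their effector Sytl2 (1.75) and the priming factor Unc13d (2.25). There 4.83% of all genes were called higher and 5.4% lower. In the pooled comparison 2 of the 9 rose, Sytl2 (1.25) and Unc13d (1.76). In PAM day 2, 1 fell, Rab3d (-1.58), and 0 rose, and after indirect day 2 none was called, with 4 higher and 2 lower at an unadjusted p under 0.05 in limma (52.1% of all genes).

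The lists of other secreted products and of further goblet cell markers were split. Over all genes 4.83% were called higher and 5.4% lower after PAM day 1, and 6.82% and 10.5% after PAM day 2. Of 13 further secreted products 1 rose and 2 fell after PAM day 1, Lypd8 (1.29), which keeps flagellated bacteria from the epithelium, against Itln1 (-2.43) and Klk1 (-3.04). After PAM day 2, of 12 tested, 2 rose and 4 fell. The gel-forming mucins Muc6 (mean 32.5 to 182, 2.48) and Muc5b (7.50 to 42.0, 2.38) rose at low levels, and Sval1 (-3.37) and Pla2g10 (-1.99) fell most. Muc6 (2.23) and Muc5b (2.15) also rose after indirect day 2, and Sval1 (-2.31), Dmbt1 (-1.67) and Itln1 (-1.08) fell. Of 16 further goblet cell markers 3 rose and 2 fell after PAM day 1, Bcas1 (1.76), Bace2 (1.73) and Mlph (1.64) against Tpsg1 (-1.75) and Smim6 (-1.19). After PAM day 2 none rose and 5 fell, Hpd (-3.63), Rep15 (mean 240 to 22.7, -3.37), Tpsg1 (-2.69), Smim6 (-2.22) and Slc12a8 (-1.55), and after indirect day 2, 4 fell, Hpd (-2.36), Smim6 (-1.87), Rep15 (-1.80) and Tpsg1 (-1.44). In the pooled day 1 comparison Lypd8 (1.08) rose and Itln1 (-1.63) and Klk1 (-2.37) fell among the products, and Bace2 (1.26), Bcas1 (1.25) and Mlph (1.13) rose and Hpd (-2.04) and Tpsg1 (-1.34) fell among the markers. Itln1 and Ang4 are in this list of products and also among the Paneth markers below. Which cells held Lypd8, Muc6 and the other listed products cannot be told from bulk RNA, so their changes need not be those of goblet cells. The same limit holds for the lists of O-glycosylation, of folding and the secretory pathway, and of granule release.

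**Figure D5:**
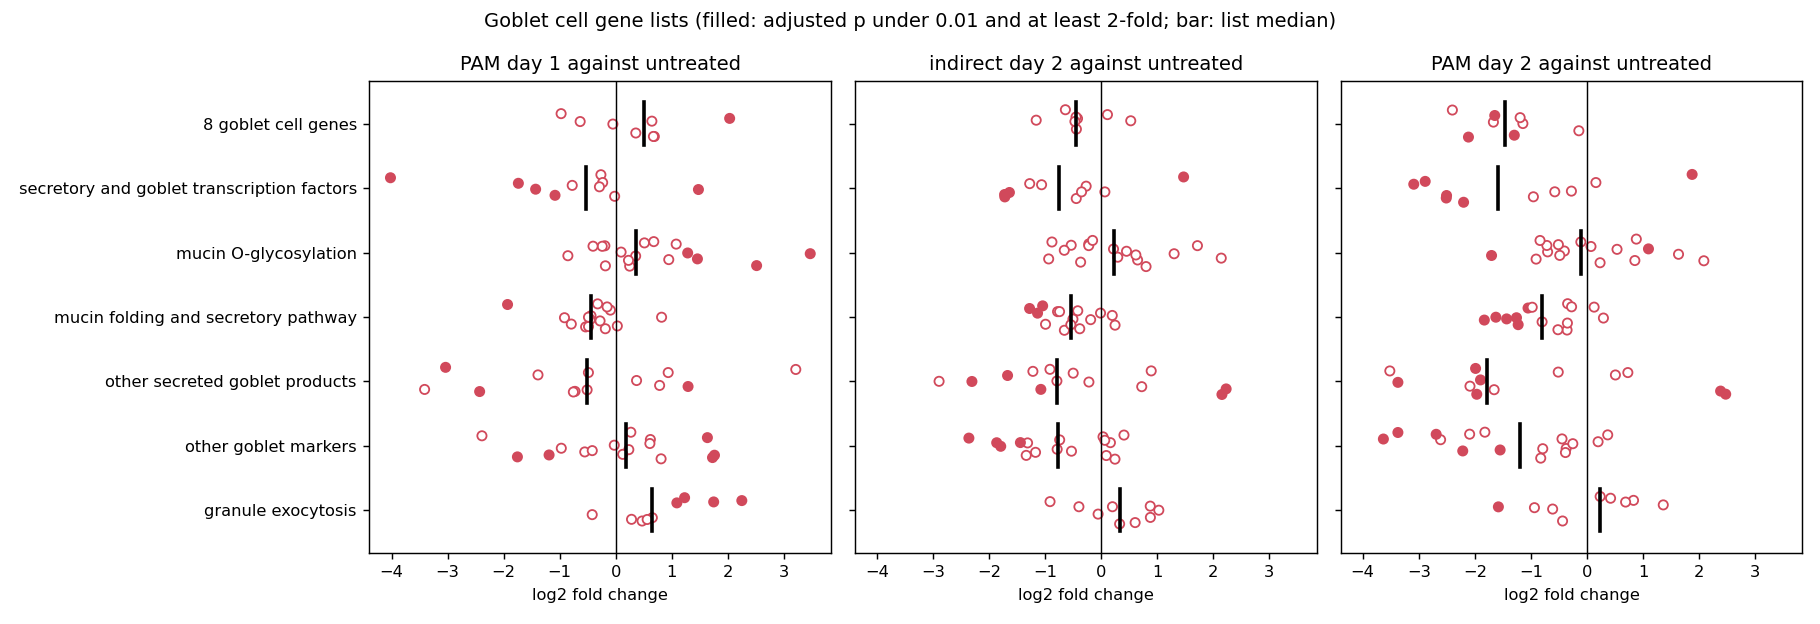
Log2 fold change against untreated for the 8 genes and 6 goblet cell gene lists, after PAM day 1, indirect day 2 and PAM day 2. Each point is a gene, filled where called, and the black bar is the list median. After PAM day 1 the filled points of O-glycosylation (4) and granule exocytosis (4) lie to the right, and after PAM day 2 the filled points of folding (6) and further markers (5) lie to the left.

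Markers of the other epithelial cells differed from untreated to an extent that depended on the cell type. The summed scaled value of 7 stem cell markers was 55848 to 65675 untreated, 13205 to 16345 after PAM day 1 and 9880 to 17918 after PAM day 2, and 6 of the 7 fell in each of these PAM groups, Olfm4, Lgr5, Smoc2 and Axin2 most. The 9 Paneth markers summed to 31428 to 44261 untreated, 4599 to 20137 after PAM day 1 and 4970 to 22750 after PAM day 2. Of those tested, 5 of 8 were called lower after PAM day 1 and 1 of 9 after PAM day 2. The 7 proliferation markers summed to 24442 to 31270 untreated, 12608 to 18878 after PAM day 1 and 4616 to 9082 after PAM day 2, where all 7 fell. The 12 enterocyte markers summed to 162094 to 185212 untreated and 217282 to 285102 after PAM day 2, and 1 of them, Alpi, rose (1.42). Of 8 tested enteroendocrine markers 0 were called after PAM day 1, and 1, Tph1, rose after PAM day 2 (1.80). Of 3 tested tuft markers Avil rose after PAM day 1 (3.25) and PAM day 2 (2.10), and Pou2f3 fell after PAM day 2 (-1.82). Of 8 markers of fetal-like regeneration 5 rose after PAM day 1 and 2 after PAM day 2, and their sum was 6320 to 16029 untreated, 43411 to 52679 after PAM day 1 and 23515 to 39402 after PAM day 2. Of 7 tested genes of Notch control Jag1 rose (1.05) and Dll4 (-1.59) and Notch1 (-1.34) fell after PAM day 1, and the same 3 were called in the same directions after PAM day 2. The part of these markers in the values of the goblet cell genes was not tested.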

How the data were processed

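Values of 22 RNA-seq libraries were used. Per the labels, the authors trimmed paired-end reads with Trimmomatic 0.36, aligned them with STAR 2.5.3a to the mouse genome and counted them with HTSeq 0.9.1. The deposited unit is a score (CP20M): counts scaled by the authors to 20 M per library and rounded up, so that whole reads could not be recovered and count tests were not run. The values were not divided by gene length, although the methods define the unit per kilobase.

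Here log2(value + 1) was tested with limma 3.58.1 (trended moderated test, R 4.3.3) over genes that reached 10 in 3 or more of the fitted libraries, with Benjamini-Hochberg adjustment over all of them. Only the libraries compared entered a fit. Fold changes are on this scale. The method and the estimate of reads per library were tested on simulated data. Sequence searches and figures used Python 3.11.15 and matplotlib 3.10.9.

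The members and gene lists were chosen with earlier results of these data known. Named from a list were its called genes, at most 4 per list and comparison where more than 5 were called. By the labels equal replicate numbers mark the same organoid line, so they pair the libraries. The untreated libraries of lines 1 and 2 did not follow these labels, and every block fit that holds untreated libraries rests on them. Deviations from group means correlated at a median of 0.564 among treated libraries sharing a line and at -0.33 among those that did not, and an alternative fit therefore carried the line as a block. Median-of-ratios scaling moved the median of all genes by 0.12 after PAM day 1, and quantile normalization moved it by 0.11 after PAM day 2. The former gave 1010 genes higher and 674 lower after PAM day 1, against 838 and 937. No replicate pair was a copy, with at most 0.801% of values of 50 or more identical.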

Additional observations from a re-analysis of the deposited data

Results flagged for a closer look

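In the untreated group the scaled value of Spdef was 690 in line 1, far from the other three libraries (431 to 456), which lay close together. Among the 8 genes this was the only untreated value to stand so far from the rest, and chance alone flags about 1 in 20 such groups. This library is 1 of the 2 whose line label is in doubt. Without it the log2 fold change of Spdef after PAM day 2 was -1.96 (adjusted p = 0.0202) in place of -2.11 (adjusted p = 0.00639).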

How the results depend on the processing

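Quantile normalization, median-of-ratios scaling, a pseudocount of 10 and no filter left the count of called members as it was in all 10 comparisons, and no called gene changed sign under any alternative. With an adjusted p under 0.05 and no minimum fold, 3 members were called after PAM day 1, 6 after PAM day 2, 3 after indirect day 2 and 2 after direct 24 h. No share of all genes was taken at this cut. At an unadjusted p under 0.05 in limma it was 50.5% after PAM day 1, 52.1% after indirect day 2 and 32.6% after direct 24 h. After PAM day 2 it was 9796 of 17694 genes, so these counts are not read as particular to the members. With all 7 groups in one fit 5 were called after PAM day 2 and 4 between PAM day 2 and PAM day 1. The replicate block (the organoid line) gave 0 after PAM day 1 and 2 after PAM day 2, and changed no other count. Against untreated this block rests on the labels of lines 1 and 2, which are in doubt. With the block and all 7 groups in one fit 6 were called after PAM day 2 and 5 between PAM day 2 and PAM day 1. For PAM day 2 no share of all genes stands beside the counts of these joint fits. Leaving out each library in turn gave 0 to 1 in the pooled day 1 comparison, 0 to 3 after PAM day 1, 0 to 1 after indirect day 2 and 1 to 4 after PAM day 2, and 0 throughout elsewhere. No share of all genes stands beside these leave-one-out counts, so they are not read as particular to the members. Of 2 alternatives chosen after seeing the data, averaging the treated libraries of each line gave 0 in the pooled day 1 comparison. The other, without the untreated libraries of lines 1 and 2, gave 0 in all 7 comparisons with untreated, including the pooled day 1 comparison, PAM day 1 and PAM day 2, where 2 untreated libraries were left.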
